A study of Mus musculus with 9 samples.

Results

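The miR-143 and miR-145 cluster gives 4 mature miRNAs in the table of epididymosome small RNA, namely miR-143-3p, miR-143-5p, miR-145a-5p and miR-145a-3p. They are all arms listed under the names of these hairpins, 4 of the 358 miRNAs, and the cluster was picked with earlier results of these data known. Epididymosomes are small membrane vesicles released into the lumen of the epididymis, the duct in which spermatozoa mature. Male Swiss mice aged 8 weeks were used, and the vesicles were isolated on a density gradient from the caput, the corpus and the cauda, which sperm enter one after the other. Each segment was represented by 3 libraries, and the RNA of a library was a pool of several animals, and errors given here are between pools rather than between mice. No animal was treated or carried an engineered allele, and the 3 segments are the only groups. The luminal material was released from tissue that had been cut open after the vasculature was flushed. Values are CPM, the reads of a mature miRNA scaled to the same total of miRNA reads in each library, and a mature miRNA is read whole, so that no correction for length was made.

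miR-143 and miR-145 are transcribed together and are best known from smooth muscle, where they promote the contractile state and hold back proliferation. In that tissue they depend on serum response factor and its partner myocardin, and their known targets include regulators of the actin cytoskeleton and the Kruppel-like factors KLF4 and KLF5. The epididymal duct is wrapped in smooth muscle, which is thickest around the cauda, while the epithelium that lines the duct is held to be the main source of epididymosomes. A hairpin precursor gives a 5p and a 3p arm. One arm is usually loaded into Argonaute and kept, and the other, the passenger arm, is mostly degraded.

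In the GENCODE annotation of the mouse genome (build GRCm38) the hairpin Mir143 lies at chr18:61649196-61649258 and Mir145a at chr18:61647825-61647894, both on the minus strand with 1301 bases between them. RefSeq places both hairpins within the long non-coding RNA Carmn, at chr18:61645878-61665538. The GENCODE model of Carmn, also on the minus strand, is shorter and ends 366 bases before Mir143, so that neither hairpin is exonic or intronic in it. The long non-coding RNA Bvht lies on the opposite strand next to Mir145a. A further hairpin, Mir145b, lies at chr18:69022199-69022273 on the same chromosome and is not part of the cluster.

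The libraries held from 1548581 to 11306605 reads on miRNAs, as recovered from the value of 1 read in each. The caput libraries were the deepest and the cauda and corpus libraries the shallowest, and 10 CPM stood for between 15.5 and 113 reads. The values of miR-143-3p, miR-145a-5p and miR-145a-3p rested on many more reads than this, whereas miR-143-5p had between 7 and 149 reads in a library. Intervals quoted from reads cover counting error only. No pair of libraries of a segment agreed within sampling noise.

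miR-10b-5p and miR-10a-5p were the other miRNAs among the 3 most abundant in every segment, and their mature sequences from RefSeq (GRCm38.p6) are shown because they set the scale for the level of miR-143-3p. The capitals mark the seed, bases 2 to 8 from the 5′ end, which pairs with target transcripts. Both have the same seed and differ by the substitution U12A, with the base of miR-10a-5p first and positions counted from the 5′ end. The sequences of the 5 miRNAs whose pattern over the 9 libraries was closest to that of miR-143-3p follow them.
miR-10a-5p: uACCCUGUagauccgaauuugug
miR-10b-5p: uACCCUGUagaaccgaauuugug
miR-329-3p: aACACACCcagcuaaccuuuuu
miR-30a-3p: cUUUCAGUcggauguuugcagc
miR-28a-3p: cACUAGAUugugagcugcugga
miR-193b-3p: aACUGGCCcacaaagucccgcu
miR-409-3p: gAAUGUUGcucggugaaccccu

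miR-143-3p, the retained arm of miR-143, was the most abundant of the 4 miRNAs in every library. It stood at 51019, 49777 and 88072 CPM in the 3 caput libraries, with a mean of 62956 ± 21760 CPM (SD, n = 3). In the corpus it stood at 91269, 87930 and 120674 CPM, with a mean of 99958 ± 18019 CPM (SD, n = 3). In the cauda it reached 352106, 306625 and 287084 CPM, with a mean of 315271 ± 33362 CPM (SD, n = 3). Every cauda library was above every caput and corpus library, whereas the caput and corpus libraries overlapped, with the highest caput library slightly above the lowest corpus library. By rank, miR-143-3p was the 3rd most abundant miRNA in all caput and corpus libraries, below miR-10b-5p and miR-10a-5p, and the most abundant miRNA in all cauda libraries.

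miR-143-5p, the passenger arm, was at 13.2, 3.26 and 17.6 CPM in the caput libraries and at 10.2, 10.2 and 4.52 CPM in those of the corpus. In cauda libraries it was at 51.0, 19.2 and 24.6 CPM. The cauda libraries were again the highest, but the lowest of them, with 42 reads, had a 95% Poisson interval of 13.9 to 26.0 CPM, which included the highest caput value. Within a library, miR-143-3p was between 3871 and 26696 times as abundant as its partner arm.

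miR-145a-5p, the arm of miR-145a to which most of its known functions are assigned, was at 372, 229 and 697 CPM in the caput. In the corpus it was at 449, 319 and 504 CPM. In the cauda it was at 909, 791 and 3851 CPM, with a mean of 1850 ± 1733 CPM (SD, n = 3). Cauda replicate 3 thus held several times as much miR-145a-5p as the others, although even the lowest cauda library was above all caput and corpus libraries.

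miR-145a-3p, the other arm, was at 274, 106 and 208 CPM in caput libraries and at 341, 164 and 229 CPM in corpus libraries. In the cauda it was at 1721, 1592 and 716 CPM, with a mean of 1343 ± 546 CPM (SD, n = 3). All cauda libraries lay above the rest, and here cauda replicate 3 was the lowest of its group. For each of the 4 miRNAs the order of the segments was therefore cauda above the other two, with caput and corpus overlapping.

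**Figure D1:**
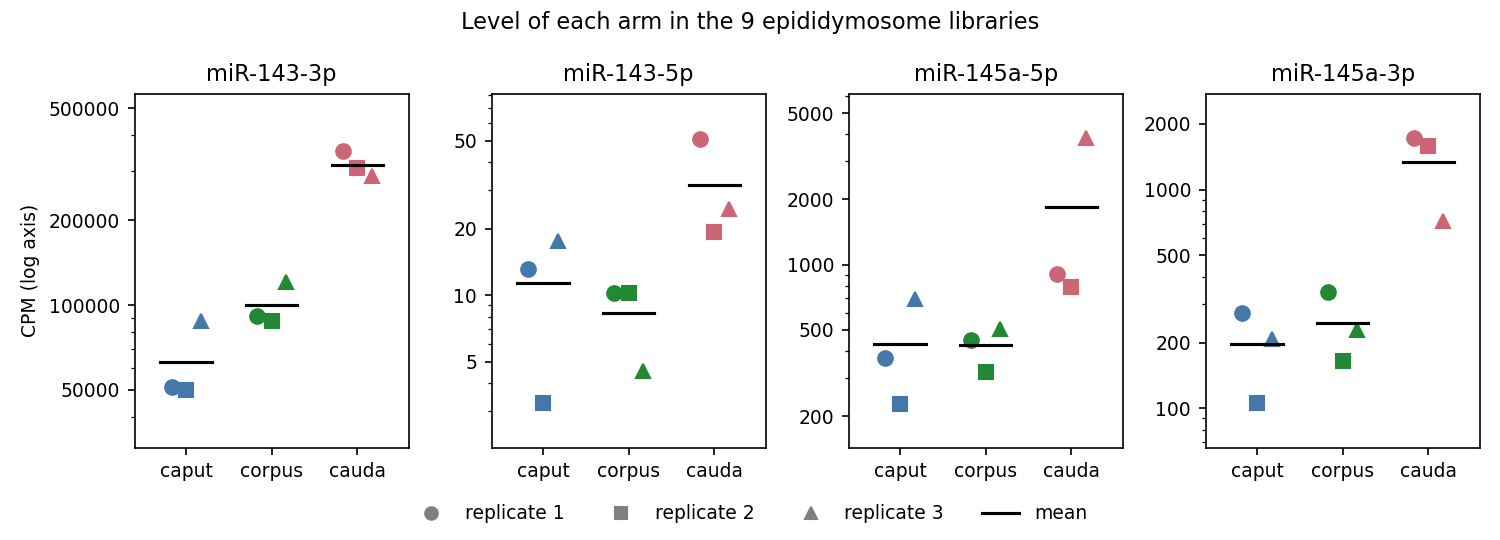
CPM of miR-143-3p, miR-143-5p, miR-145a-5p and miR-145a-3p in the 9 epididymosome libraries, on log axes with a separate scale for each miRNA. Each marker is 1 library, its shape gives the replicate number and the line is the mean of 3 libraries. The 3 cauda libraries lie above all caput and corpus libraries in each panel, and cauda replicate 3 is the highest for miR-145a-5p and the lowest for miR-145a-3p.

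miR-145b, a miRNA of closely related name from the separate locus, was far lower at 1.94 to 20.4 CPM. It was between 0.385 and 1.23% of miR-145a-5p in the same library, and whether reads were shared between them was not tested.

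The 4 arms together made up 6.36% ± 2.20 of the reads in the caput (SD, n = 3; libraries from 5.01 to 8.90%). They made up 10.1% ± 1.81 in the corpus (SD, n = 3; 8.84 to 12.1%) and 31.8% ± 3.26 in the cauda (SD, n = 3; 29.2 to 35.5%). miR-143-3p alone supplied between 98.4 and 99.4% of the reads of the 4 arms in a library. miR-10a-5p and miR-10b-5p together took 61.7% ± 10.5 of caput reads, 51.6% ± 1.47 of corpus reads and 33.7% ± 0.711 of cauda reads (SD, n = 3 each). All remaining miRNAs took 32.0% ± 8.48, 38.3% ± 1.29 and 34.5% ± 2.71, respectively (SD, n = 3 each), so that the rise of the share of the 4 arms in the cauda stood beside a fall of the share of the miR-10 pair. Shares sum to a fixed total, and more of a miRNA in the vesicles cannot be told apart here from less of the others, nor a higher content per vesicle from more vesicles of a given cell type. A ratio of miRNAs within a library does not depend on its total, and that of miR-143-3p to miR-10b-5p was 0.181 ± 0.100 for caput, 0.311 ± 0.0525 for corpus and 1.68 ± 0.247 for cauda libraries (SD, n = 3 each). Among the reads outside miR-10a-5p and miR-10b-5p, the 4 arms held 16.5% ± 2.13 for caput, 20.8% ± 3.27 for corpus and 48.0% ± 4.50 for cauda libraries (SD, n = 3 each).

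**Figure D2:**
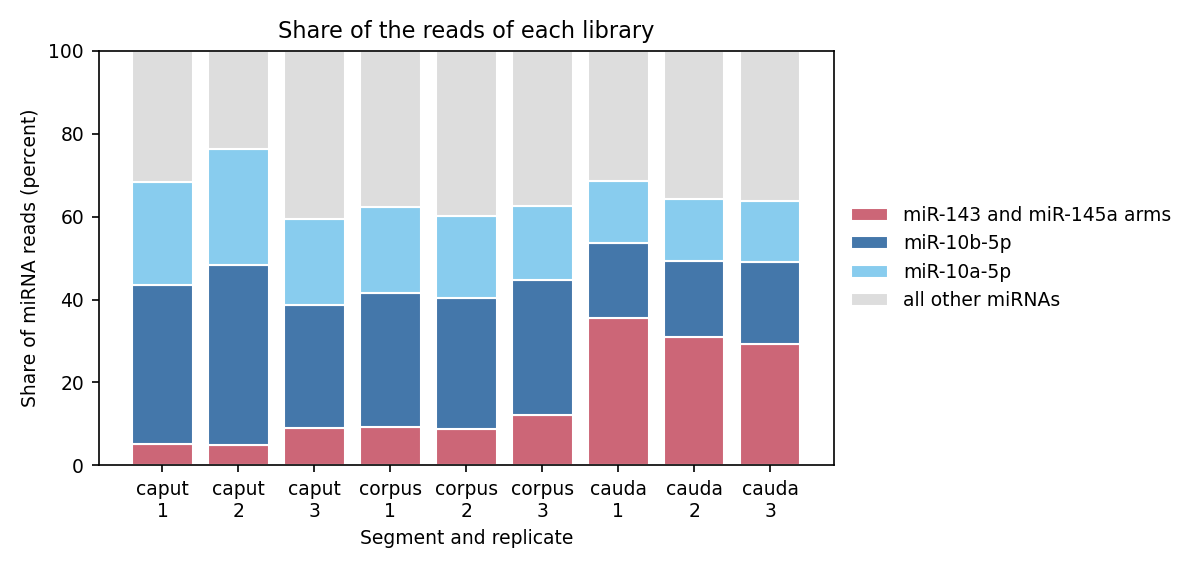
Percentage of all miRNA reads in each of the 9 libraries, as stacked bars from 0 for the 4 arms of miR-143 and miR-145a, the pair miR-10a-5p and miR-10b-5p, and all other miRNAs. The 4 arms rise from 5.01 to 12.1% of the reads in caput and corpus libraries to between 29.2 and 35.5% in cauda libraries, while the miR-10 pair falls to between 33.2 and 34.5%.

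The segments were compared with limma on log2(CPM + 1) over all 9 libraries, with adjustment by Benjamini-Hochberg over the miRNAs that averaged 10 CPM or more in either segment. A miRNA was called differentially accumulated where the adjusted p was below 0.05 and the change at least 2-fold, and fold changes are on the log2(CPM + 1) scale, which understates the change of low miRNAs.

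From caput to cauda all 4 arms rose past both thresholds. By this rule 38.7% of the 349 miRNAs tested were called higher in the cauda, and 42.4% had all cauda libraries above all caput libraries, as the 4 arms did. miR-143-3p rose by 2.37 on the log2 scale (SE 0.22, limma adjusted p = 6.5e-07), a 5.17-fold difference with a 95% interval of 3.73 to 7.18. miR-145a-3p rose by 2.78 (SE 0.47, limma adjusted p = 0.000192), or 6.85-fold (95% interval 3.44 to 13.6). miR-145a-5p rose by 1.85 (SE 0.55, limma adjusted p = 0.0105), or 3.59-fold (95% interval 1.61 to 8.01), and miR-143-5p by 1.53 (SE 0.58, limma adjusted p = 0.0356), or 2.88-fold (95% interval 1.24 to 6.70). The intervals of the 4 arms overlap. Differences among them in the size of the rise were tested only through the arm ratios and the ratio of miR-145a-5p to miR-143-3p given below.

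The median log2 change of all tested miRNAs from caput to cauda was itself 0.81, and it was 0.07 after TMM normalization, which scales libraries on the bulk of their miRNAs. Relative to the median, miR-143-3p rose by 1.56, miR-145a-3p by 1.97, miR-145a-5p by 1.04 and miR-143-5p by 0.72 on the log2 scale. Under TMM normalization miR-143-3p rose 3.24-fold (limma adjusted p = 9.2e-05) and miR-145a-3p 4.29-fold (limma adjusted p = 0.00191). The change of miR-145a-5p was 2.25-fold (limma adjusted p = 0.0559) and that of miR-143-5p 1.90-fold (limma adjusted p = 0.131), and neither passed. Of all calls from caput to cauda, 135 were higher and 36 lower with library size scaling, against 84 higher (24.0% of the 350 tested) and 73 lower with TMM normalization. The call of miR-145a-5p was also lost without caput replicate 2 (log2 change 1.46) or cauda replicate 3 (1.12), and that of miR-143-5p without caput replicate 2 (0.88) or cauda replicate 1 (1.13).

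From corpus to cauda all 4 arms were again higher past both thresholds and without overlap of the libraries, against 14.0% of the 342 miRNAs tested that were called higher and 30.1% that were higher without overlap. miR-145a-3p showed a log2 change of 2.41 (SE 0.47, limma adjusted p = 0.00187), or 5.33-fold, the 15th highest of the 342. miR-143-3p rose by 1.67 (SE 0.22, limma adjusted p = 5.4e-05), or 3.17-fold (95% interval 2.29 to 4.41). The rises of miR-143-5p (3.39-fold, limma adjusted p = 0.0395) and miR-145a-5p (3.37-fold, limma adjusted p = 0.0339) were less certain. miR-143-5p, below 10 CPM on average in the corpus, entered this comparison only through its cauda level. The comparison shares its cauda libraries with that from caput to cauda. The median change of all tested miRNAs was 0.18, and the 4 arms kept their calls under TMM normalization. The call of miR-143-5p was lost without any 1 of the 6 libraries, at log2 changes of 1.36 to 2.05. That of miR-145a-5p was lost without cauda replicate 3 (1.02), corpus replicate 1 (1.81) or corpus replicate 2 (1.56).

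From caput to corpus none of the 4 arms was called, and none was higher without overlap. For comparison, 19.0% of the 321 miRNAs tested were called higher and 29.3% were higher without overlap. miR-143-3p was 1.63-fold higher in the corpus (95% interval 1.17 to 2.26, limma adjusted p = 0.0316), below the fold required, and its log2 change was 0.13 under TMM normalization. The log2 changes of miR-145a-3p (0.36, 95% interval −0.63 to 1.35), miR-145a-5p (0.09, 95% interval −1.06 to 1.25) and miR-143-5p (−0.24, 95% interval −1.45 to 0.98) each had an interval that included 0. The intervals also reached a 2-fold rise for miR-145a-5p and miR-145a-3p and a 2-fold fall for miR-145a-5p and miR-143-5p. At an unadjusted p under 0.05 limma counted 1 of the 4 arms, miR-143-3p, and limma-voom on the recovered reads called 0 of the 4.

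**Figure D3:**
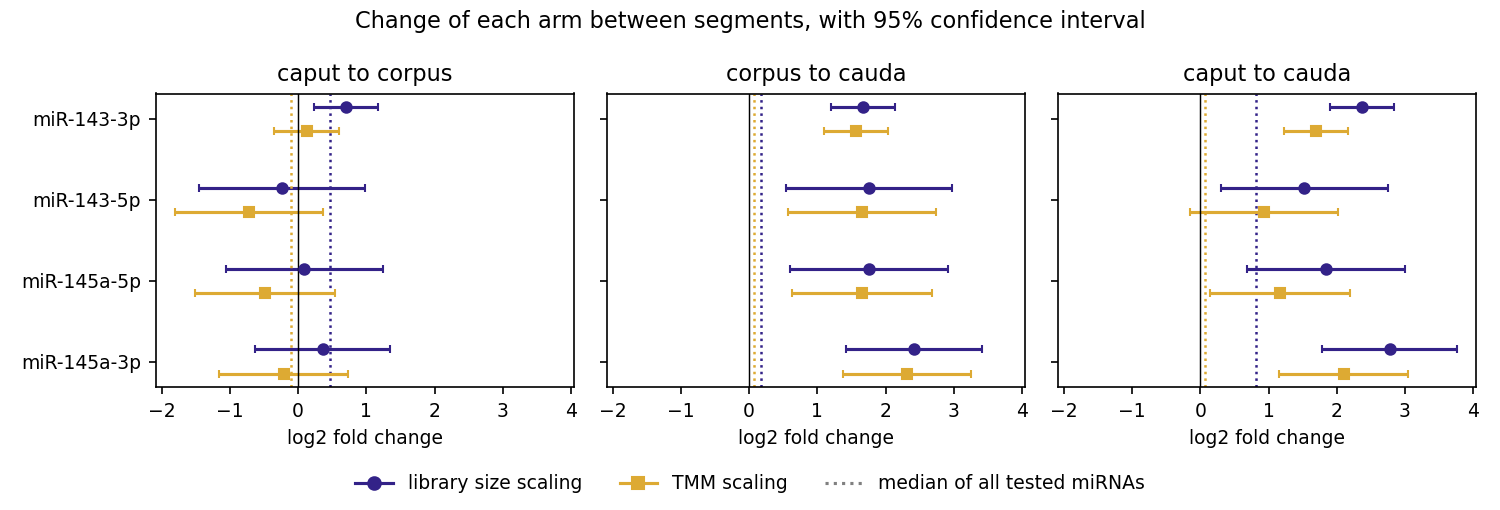
Log2 fold change of the 4 arms in the 3 comparisons of segments with library size scaling (circles) and TMM normalization (squares). Bars give the 95% interval from limma, and dotted lines the median of all miRNAs tested. With library size scaling the caput to corpus values lie between −0.24 and 0.70, and those of the comparisons with the cauda between 1.53 and 2.78.

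Whether the rise from corpus to cauda was larger than that from caput to corpus was tested as the difference between the steps. The difference was 0.96 on the log2 scale for miR-143-3p (SE 0.39, limma adjusted p = 0.147) and 2.05 for miR-145a-3p (SE 0.81, limma adjusted p = 0.141). It was 2.00 for miR-143-5p (SE 1.00, limma adjusted p = 0.262) and 1.66 for miR-145a-5p (SE 0.95, limma adjusted p = 0.334). None passed the test, against 6.15% of the 358 miRNAs that did, although 2 of the 4 arms were under an unadjusted p of 0.05 by limma. By limma-voom 0 of the 4 passed. Under TMM normalization, which moved the median difference of all miRNAs from −0.20 to 0.23, miR-143-3p (1.44, limma adjusted p = 0.0299) and miR-145a-3p (2.53, limma adjusted p = 0.0468) passed. A later step larger than the earlier one was therefore called or not depending on the scaling.

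The balance of the arms of miR-145a differed between the cauda libraries. The log2 ratio of 5p to 3p was 0.44, 1.11 and 1.74 in caput libraries and 0.40, 0.96 and 1.13 in corpus libraries, so that the 5p arm was the more abundant in all 6. In the cauda it was −0.92, −1.01 and 2.43, and replicate 3 had the highest ratio in each segment. The 3p arm was thus the more abundant in cauda replicates 1 and 2, while in replicate 3 the 5p arm was 5.37 times as abundant as the 3p arm.

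Among the 64 precursors whose arms both averaged 10 CPM or more over the libraries, the ratio in cauda replicate 3 less the mean of the other two cauda libraries was 3.39 for miR-145a, the highest of the 64. The next was miR-335 at 1.70, the median was −0.15 and the lowest were miR-669a at −2.47 and miR-34c at −2.75. In all, 5 precursors were above 1 and 13 below −1, and the same count was not made for the other libraries. miR-143 stood near the median at −0.15, and did not share the departure of miR-145a. The range of the ratio among the 3 cauda libraries was 3.43 for miR-145a, 3.16 for miR-669a and 2.98 for miR-34c, against a median of 0.82 over the precursors. That median was 0.85 among the caput and 0.75 among the corpus libraries, so the cauda libraries were not more spread as a whole. The comparison of this library with the others was made after its values had been seen. What set the arms of miR-145a apart in this library was not tested.

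With all 9 libraries limma called no change of the arm ratio for miR-145a or miR-143, and at an unadjusted p under 0.05 it counted 0 of these 2 in each comparison. For miR-145a the change of the log2 ratio from caput to cauda was −0.93 (SE 0.75, limma adjusted p = 0.355), when 15.6% of the 64 precursors were called. It was −0.66 from corpus to cauda (limma adjusted p = 0.716), with 6.25% called, and −0.27 from caput to corpus (limma adjusted p = 0.911), with 1.56% called. Without cauda replicate 3 the ratio fell by 2.06 from caput to cauda (limma adjusted p = 0.00280) and by 1.79 from corpus to cauda (limma adjusted p = 0.00608), both past the threshold. For miR-143 the changes were −0.78, 0.16 and −0.94 from caput to cauda, corpus to cauda and caput to corpus, with limma adjusted p of 0.313, 0.897 and 0.369.

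**Figure D4:**
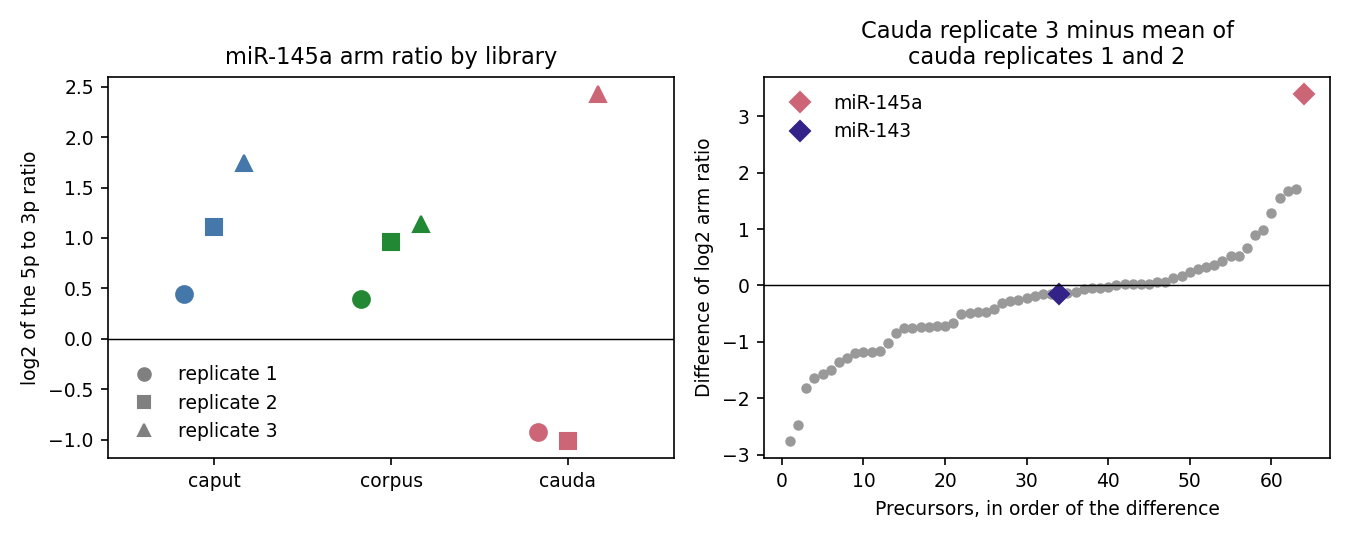
Log2 ratio of 5p to 3p for miR-145a in each of the 9 libraries, and, for 64 precursors in order of size, the ratio in cauda replicate 3 less the mean of the other two cauda libraries. In the cauda the miR-145a ratio is −0.92 and −1.01 in replicates 1 and 2 and 2.43 in replicate 3, and its difference of 3.39 is the highest of the 64 precursors.

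The hairpins share a locus, and the abundance of miR-145a relative to miR-143-3p was compared over the segments. miR-145a-5p was 0.729, 0.459 and 0.792% of miR-143-3p for the caput libraries, 0.492, 0.363 and 0.417% for those of the corpus and 0.258, 0.258 and 1.34% for those of the cauda. No difference between the segments was found by an exact permutation test of the log2 ratio over all 1680 assignments of the 9 libraries (p = 0.671; the smallest possible p is 0.00357). Without cauda replicate 3 the exact permutation p was 0.0179, with the cauda lowest, so that the outcome rested on this library. Both miR-145a arms together were between 0.550 and 1.59% of miR-143-3p. A read of miR-143-3p was hence far more frequent than a read of miR-145a in every library, and differences in capture between mature sequences during library preparation are part of such a ratio.

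Over the 9 libraries, miR-143-3p varied most like miR-145a-3p among the other 3 arms, with a Pearson r of log2(CPM + 1) of 0.91, against 0.77 for miR-145a-5p and 0.73 for miR-143-5p. The r between the arms of miR-145a was 0.64. These values describe 9 libraries in 3 groups and share their scaling, and the median r of miR-143-3p with all 357 other miRNAs was 0.51. In the order of likeness to miR-143-3p, miR-145a-3p ranked 39th of these 357. The closest were miR-329-3p (0.99), miR-30a-3p (0.98), miR-28a-3p (0.98), miR-193b-3p (0.97) and miR-409-3p (0.97), whose seeds, printed above, all differ. They were much less abundant, from 13.1 ± 2.99 CPM for miR-329-3p to 601 ± 34.8 CPM for miR-30a-3p in the cauda (SD, n = 3), against 2.46 ± 0.784 and 163 ± 44.8 CPM in the caput (SD, n = 3). Each of the 5 had all cauda libraries above all others, but their choice by likeness to miR-143-3p favours this, so it carries no weight. miR-329-3p averaged under 10 CPM in caput and corpus and was included only through its cauda level.

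The miRNAs closest to miR-145a-5p were miR-5119 (r = 0.92), miR-339-5p (0.89), miR-431-5p (0.89), miR-145b (0.89) and miR-34b-3p (0.89). Their likeness included the high level in cauda replicate 3. miR-5119 had a mean of 26.1 ± 41.5 CPM in the cauda (SD, n = 3), with a lowest library of 2.00 CPM, and miR-34b-3p stood at 131, 111 and 343 CPM there. None of the 5 was among those closest to miR-143-3p.

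Lists of miRNAs typical of cell types were examined beside the 4 arms, and no list was tested as a set. Other miRNAs linked to the state of smooth muscle numbered 9 of 11 listed, with miR-490-3p and miR-490-5p not in the table. From caput to cauda 2 of these 9 were called higher and none lower (0 at an unadjusted p under 0.05 by limma), against 38.7% of all tested miRNAs called higher, and their median log2 change was 0.81, the same as that of all tested miRNAs. The called members were miR-221-3p, with a log2 change of 3.09, and miR-222-3p, with 2.22, a pair known to promote proliferation of smooth muscle rather than its contractile state. The most abundant members, miR-26a-5p and miR-21a-5p, changed by 0.68 and 0.77 from caput to cauda and were not called. From corpus to cauda 3 of the 9 were called higher and 0 lower, against 14.0% of all tested miRNAs called higher. Their median log2 change in that step was 0.52, against 0.18 for all tested miRNAs. With TMM normalization 3 of the 9 were also called higher from corpus to cauda, against 56 of all 332 tested. The summed level of the list ran from 21191 to 41295 CPM in caput libraries and from 46703 to 57030 CPM in cauda libraries. Most of these miRNAs are also made by other cell types.

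Among striated muscle miRNAs only miR-133a-3p was tested without depending on its cauda level. Of 8 listed, 5 were in the table, and miR-206-3p, miR-208a-3p and miR-499-5p were not. miR-1a-3p, miR-133a-5p, miR-133b-3p and miR-208b-3p averaged under 10 CPM in caput and corpus and were tested only because of their cauda level, which fixed their direction, so that the count of 5 of 5 called higher and the median log2 change of 4.39 from the caput carry no weight. miR-133a-3p, which passed the filter in every segment, was called higher in the cauda against either other segment, also with TMM normalization. The summed level of the 5 ran from 55.5 to 197 CPM in caput, 121 to 167 CPM in corpus and 1412 to 4166 CPM in cauda libraries. The sum includes the miRNAs tested only because of their cauda level. Most of the sum was miR-133a-3p, which stood at 2458, 3644 and 1211 CPM in the cauda libraries. Cauda replicate 3 was the lowest, as for miR-143-3p and miR-145a-3p but not for miR-143-5p or miR-145a-5p. It was also the lowest cauda library for the summed red blood cell and endothelial lists below, but not for the sums of the remaining lists. The part of muscle of either kind in the level of the 4 arms was not tested.

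Mesenchymal and fibroblast miRNAs summed to 3207 to 7902 CPM in caput, 8142 to 10687 CPM in corpus and 9573 to 15258 CPM in cauda libraries. They were called higher from caput to cauda for 4 of 8 (median log2 change 1.33), against 38.7% of all tested miRNAs, and miR-199a-3p and miR-199b-3p among the 4 were too alike in value to count as separate. From corpus to cauda limma called 0 of these 8, against 14.0% of all tested miRNAs called higher. At an unadjusted p under 0.05 limma counted 0 of them, and 0 was called with TMM normalization. Their median log2 change in that step was 0.14, against 0.18 for all tested miRNAs. Endothelial miRNAs summed to 837 to 2671 CPM in caput, 1721 to 3109 CPM in corpus and 2684 to 3457 CPM in cauda libraries. From caput to cauda limma called 0 of these 2, against 38.7% of all tested miRNAs called higher. By limma 1 of the 2 was at an unadjusted p under 0.05, and 0 was called with TMM normalization. Of 8 epithelial miRNAs, which summed to 23196 to 35351 CPM in caput, 75269 to 86840 CPM in corpus and 46242 to 62878 CPM in cauda libraries, miR-141-3p was called higher and miR-375-3p lower from caput to cauda (median log2 change 0.09). With TMM normalization 0 of the 8 was called higher and 3 lower, against 84 higher and 73 lower of all 350 tested.

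Red blood cell miRNAs summed to 223 to 848 CPM in caput, 390 to 1106 CPM in corpus and 3030 to 4365 CPM in cauda libraries. From caput to cauda 5 of the 5 in the table, of 6 listed, were called higher (median log2 change 3.09), but miR-144-3p and miR-486a-3p were tested only because of their cauda level. That leaves 3 of 3 that averaged 10 CPM or more in the caput, and miR-486a-5p and miR-486b-5p of these were alike in value. Over all tested miRNAs 38.7% were called higher, and of the 277 that averaged 10 CPM or more in the caput 26.7% were. With TMM normalization 3 of the 5 red blood cell miRNAs were called higher, against 24.0% of all tested.

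Leukocyte miRNAs summed to 231 to 530 CPM in caput, 515 to 1149 CPM in corpus and 392 to 1601 CPM in cauda libraries. In cauda replicates 1, 2 and 3 they summed to 392, 468 and 1601 CPM, the first 2 within the caput range. From caput to cauda leukocyte miRNAs were called higher for 3 of 5 (median 1.82), or for 2 of 4 without miR-155-5p, which was tested only because of its cauda level. Germ cell miRNAs summed to 277 to 983 CPM in caput, 646 to 757 CPM in corpus and 1861 to 2183 CPM in cauda libraries. They were called higher for 8 of 8 (median 1.82), or for 6 of 6 without miR-34c-3p and miR-880-3p, which were tested only because of their cauda level. For both lists the share over all tested miRNAs was 38.7%, and it was 26.7% over the 277 that averaged 10 CPM or more in the caput. With TMM normalization 3 of 7 germ cell miRNAs were called higher, against 24.0% of all tested. The part of any of these cell types in the rise of the 4 arms was not tested.

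**Figure D5:**
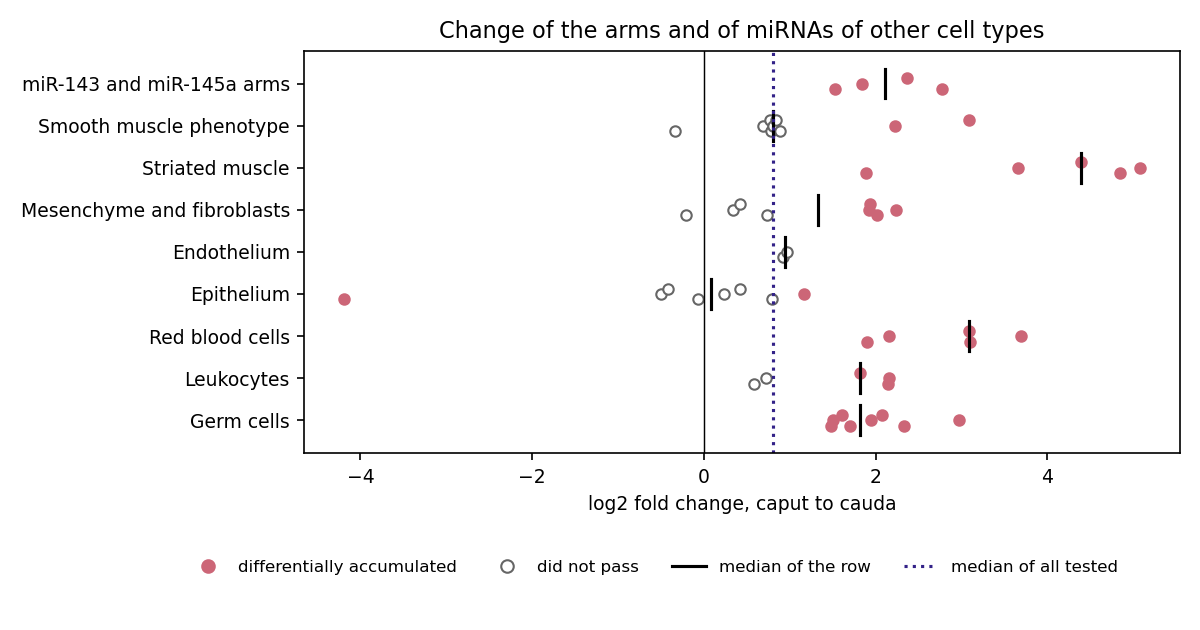
Log2 fold change from caput to cauda of every tested miRNA of each cell type list, with the 4 arms of miR-143 and miR-145a alongside, a short bar at the median of each list and a dotted line at the median of all tested miRNAs, 0.81. Filled points were differentially accumulated, and some miRNAs of the striated muscle, red blood cell, leukocyte and germ cell lists were tested only because of their cauda level. The smooth muscle list, which leaves out the 4 arms, has its median at 0.81.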

How the data were processed

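Per the labels and the study's methods, the authors screened reads with Bowtie 1.1.1, assigned them to mature miRNAs with miRDeep2's quantifier and normalised the counts for library size, so that the deposited values are CPM. The genome build and miRBase release are not given in the sources used here. The authors compared segments with edgeR and limma. Here all 358 miRNAs in 9 libraries were fitted with limma 3.58 in R 4.3 on log2(CPM + 1), using lmFit with trended eBayes, with the segment as the only factor, and adjusted p-values (Benjamini-Hochberg) cover miRNAs that averaged 10 CPM or more in a segment compared. limma-voom was run on read numbers found by dividing CPM by the value of 1 read; 100% of the low values came out whole within 0.02 of a read in every library. Arm ratios used a pseudocount of 0.5 CPM. The miRNAs named are the 4 arms, the 5 closest by r to miR-143-3p and to miR-145a-5p, the 3 most abundant per segment, and members of cell type lists, mostly by abundance. miR-221-3p, miR-222-3p, miR-375-3p, miR-335, miR-669a, miR-34c and the miRNAs that passed the filter only through the cauda were named after their values were seen. The limma fit with TMM normalization and the fit of arm ratios were run on simulated data, with the same spread set for every miRNA. The fit with library size scaling and the permutation test were not assessed in this way. The 4 miRNAs and the lists were chosen with earlier results of these data known. Replicate numbers come from the labels. Deviations of same-numbered libraries correlated at −0.21 to 0.41, against −0.45 to 0.18 for libraries of unlike number. The main fits did not treat same-numbered libraries as pairs, and these values do not settle whether they are. Alternatives were TMM, median-of-ratios and other scalings, pseudocounts, filters, limma-voom, a replicate block and each library left out.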

Additional observations from a re-analysis of the deposited data

How the results depend on the processing

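The calls of miR-143-3p and miR-145a-3p in both comparisons with the cauda were kept under every alternative run. From caput to cauda, miR-143-5p was not called with TMM (log2 change 0.93), median-of-ratios scaling (0.88) or a pseudocount of 10 CPM (0.95), nor miR-145a-5p with TMM (1.17) or median-of-ratios scaling (1.12), and 95 miRNAs in all were called with a filter at 50 CPM against 171. From corpus to cauda, limma-voom did not call miR-143-5p (1.75). From caput to corpus, miR-145a-3p turned to −0.21 with TMM and −0.16 with median-of-ratios scaling, and miR-145a-5p to −0.48, −0.43 and, scaled without the 3 most abundant miRNAs, −0.20. The difference between the steps passed for miR-143-3p with TMM (1.44), median-of-ratios scaling (1.28) and scaling without the 3 most abundant miRNAs (1.40), and for miR-145a-3p with TMM (2.53), and the miRNAs past the threshold numbered 44, 44 and 35 under these scalings against 22. The arm ratio of miR-143 from corpus to cauda turned to −0.017 with a pseudocount of 2 CPM. Outside miR-10a-5p and miR-10b-5p the shares of the 4 arms were 16.5, 20.8 and 48.0%. Except where a filter or scaling is itself the change, the cause was not tested.

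With each library left out in turn, the log2 changes of miR-143-3p, miR-143-5p, miR-145a-3p and miR-145a-5p ranged over 2.23 to 2.64, 0.88 to 1.95, 2.38 to 3.18 and 1.12 to 2.26 from caput to cauda. From corpus to cauda they ranged over 1.58 to 1.81, 1.36 to 2.05, 2.16 to 2.82 and 1.02 to 2.16, and from caput to corpus over 0.56 to 0.97, −0.88 to 0.10, −0.029 to 0.66 and −0.29 to 0.51. The differences between the steps ranged over 0.69 to 1.25, 1.32 to 2.64, 1.54 to 2.59 and 0.93 to 2.07. The arm ratio of miR-145a changed by −2.06 to −0.35 from caput to cauda, −0.60 to 0.053 from caput to corpus and −1.79 to −0.077 from corpus to cauda, and that of miR-143 by −1.33 to −0.41, −1.48 to −0.43 and −0.35 to 0.43. The p of the ratio of miR-145a-5p to miR-143-3p ranged from 0.0179 to 0.896 (exact permutation), and the shares of the 4 arms over 5.09 to 7.03% in the caput, 9.02 to 10.7% in the corpus and 30.0 to 33.2% in the cauda. The miRNAs past the threshold numbered 132 to 202 from caput to cauda, 46 to 102 from caput to corpus (lowest without corpus replicate 1), 32 to 83 from corpus to cauda (32 without corpus replicate 2, and 38, 39 and 41 without cauda replicate 1, cauda replicate 2 or corpus replicate 1) and 8 to 35 for the difference between the steps (8 and 14 without corpus replicate 2 or 1, and 35 without caput replicate 2 or 3).

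The fit with the replicate number as a block gave 180 calls from caput to cauda, 83 from caput to corpus and 73 from corpus to cauda, against 171, 72 and 65 without it, and changed no call of the 4 arms. For the arm ratio of miR-145a from caput to cauda the block gave an SE of 0.51 against 0.75 without it, and no call (limma adjusted p = 0.180). The exact permutation p of the ratio of miR-145a-5p to miR-143-3p within the block was 0.611. A planned quasi-likelihood test on counts was not run, and limma-voom on the recovered reads was the one model of counts used. The filter at 50 CPM leaves out miR-143-5p, whose 7 to 149 reads per library make it the least certain of the 4.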
